A study of Mus musculus with 21 samples.

Results

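The proteins of the Bcl2 family decide whether a cell keeps its mitochondria intact or enters apoptosis. Survival members such as Bcl2, Bcl-xL (encoded by *Bcl2l1*) and Mcl1 bind and hold back the pore formers Bax and Bak1, which otherwise open the outer mitochondrial membrane and release cytochrome c. The BH3-only proteins Bim (*Bcl2l11*), Bid, Bad, Puma (*Bbc3*) and Noxa (*Pmaip1*) sense stress or loss of growth factors and tip this balance, either by occupying the survival members or by activating Bax and Bak1. In lymphoid progenitors, IL-7 signalling is known to maintain *Bcl2* and *Mcl1*, and *Bax*, *Bbc3* and *Pmaip1* are textbook p53 target genes.

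These 10 genes, 3 survival members, 2 pore formers and 5 BH3-only genes, were chosen by name among the 55421 genes of a QuantSeq 3′ mRNA table, and all 10 passed the filter for testing, a mean above 1 TPM over the 15 libraries. Peaks were taken where a Zbtb1 or Cbfa2t3 ChIP-seq list names one of the 10 as the nearest gene, which gave 8 of 5898 Zbtb1 peaks and 16 of 6077 Cbfa2t3 peaks. The cells were a C57BL6/J *Ebf1*-deficient lymphoid progenitor (LP) line, grown on OP9 stroma with SCF, IL-7 and Flt3L. For QuantSeq, all cells carried Cas9-GFP and received pooled sgRNAs by a retroviral vector with the hNGFR marker, against luciferase (sgControl), *Lmo2* (sgLmo2), *Zbtb1* (sgZbtb1), *Cbfa2t2* (sgCbfa2t2) or *Cbfa2t3* (sgCbfa2t3). Double-positive cells were sorted 5 days after sgRNA transduction, without Notch stimulation, with 3 libraries per sgRNA. ChIP-seq was made from the same line without sgRNA, with 2 libraries per factor, and peaks were called against a matched control. Because all conditions derive from 1 line, a difference between sgRNAs is a difference in this line and in pools of edited cells.

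The libraries held 1705416 to 2095447 reads, and 3 reads, the floor for counting error, were worth 1.43 to 1.76 TPM. TPM here is a gene's reads scaled to the total of its library, with no division by gene length, since QuantSeq reads only the 3′ end of each mRNA. All 7 lymphoid progenitor markers were above the filter, with a summed level of 1207 to 1463 TPM over all libraries, the lowest of them an sgZbtb1 library. The B-lineage marker *Cd79a*, the stroma markers *Col3a1* and *Lum* and the myeloid marker *Elane* were listed at 0 in every library. Other genes of these lists had reads, the highest being *Ebf1* (209 to 366 TPM) and *Pax5* (0 to 18.1) for the B lineage, *Mpo* (0 to 20.2) and *Itgam* (2.74 to 14.5) for myeloid cells and *Pdgfrb* (0.478 to 10.7) for stroma. *Lmo2* mRNA in the libraries labelled sgLmo2 was at 8.48, 24.4 and 15.9 TPM, overlapping sgControl at 15.8 to 23.2 TPM. *Zbtb1* mRNA was higher in the libraries labelled sgZbtb1 (94.4, 113 and 109 TPM) than in sgControl (55.7 to 66.6 TPM, limma adjusted p = 0.00102), and *Cbfa2t3* mRNA was higher in those labelled sgCbfa2t3 (340, 344 and 365 against 172 to 210 TPM, limma adjusted p = 1.67e-07). *Cbfa2t2* mRNA was at 25.5, 23.9 and 16.4 TPM in those labelled sgCbfa2t2 and at 11.0 to 12.3 TPM in sgControl (limma adjusted p = 0.412). Reads from a 3′ end do not show whether the coding sequence was cut, so these values do not check the editing, and each condition below means the libraries with that label.

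The sequences under the Zbtb1 peaks at the transcription starts are shown first, since *Bcl2* and *Bax*, the members that changed with sgZbtb1, both had one. Zbtb1 is a BTB zinc finger protein, and Cbfa2t3 (ETO2) is a corepressor that is brought to DNA by E proteins and other partners. Each sequence comes from the RefSeq genome GRCm38 (the build of the files, mm10), runs 5′ to 3′ along the strand of the gene, and stops at most 30 bases into the untranslated region. Capitals mark the letters of 4 motifs searched on both strands. They are the core of Runx sites (TGTGGT), the letters TGGTGGT, an E-box form (CAGNTG) and the core of Gata sites (GATAA). The study links TGGTGGT to a motif of the ZBTB family. The first sequence is 149 bases at chr1:106714261-106714409, minus strand, the upstream part of the *Bcl2* peak. The second is 195 bases at chr7:45466869-45467063, minus strand, the upstream part of the *Bax* peak. The third is 256 bases at chr3:95658495-95658750, plus strand, most of the *Mcl1* peak.
Bcl2 promoter: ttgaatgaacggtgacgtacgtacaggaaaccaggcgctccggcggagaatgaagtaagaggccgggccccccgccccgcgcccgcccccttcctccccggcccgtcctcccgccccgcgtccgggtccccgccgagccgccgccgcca
Bax promoter: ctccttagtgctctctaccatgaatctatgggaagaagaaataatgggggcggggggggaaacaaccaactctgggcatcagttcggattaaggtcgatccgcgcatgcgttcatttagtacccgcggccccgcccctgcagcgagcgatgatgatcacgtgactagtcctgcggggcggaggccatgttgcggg
Mcl1 promoter: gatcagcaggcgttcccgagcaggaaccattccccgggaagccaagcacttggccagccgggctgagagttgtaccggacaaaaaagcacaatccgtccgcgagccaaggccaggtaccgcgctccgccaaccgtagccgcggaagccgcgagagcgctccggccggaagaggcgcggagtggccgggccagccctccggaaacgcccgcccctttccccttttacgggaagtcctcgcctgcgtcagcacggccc
None of these 3 sequences held any of the 4 motifs, so all are in lower case. G and C made up 74.5% of the *Bcl2* sequence, 57.9% of the *Bax* sequence and 68.0% of the *Mcl1* sequence.

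At *Bcl2l11* and *Bbc3*, peaks of both factors overlapped, and these sequences are shown to place the motifs between them. The *Bcl2l11* promoter sequence is 300 bases at chr2:128125748-128126047, plus strand, from the Cbfa2t3 peak, whose downstream part the Zbtb1 peak also covered. The intronic pair are 200 bases at chr2:128152849-128153048, at the centre of the Cbfa2t3 peak, and 200 bases at chr2:128153100-128153299, at the centre of the Zbtb1 peak beside it. The upstream sequence is 200 bases at chr2:128091482-128091681, at the centre of the Cbfa2t3 peak with the highest score near any member. The *Bbc3* sequence is 200 bases at chr7:16309954-16310153, plus strand, at the centre of its overlapping Cbfa2t3 peak.
Bcl2l11 promoter: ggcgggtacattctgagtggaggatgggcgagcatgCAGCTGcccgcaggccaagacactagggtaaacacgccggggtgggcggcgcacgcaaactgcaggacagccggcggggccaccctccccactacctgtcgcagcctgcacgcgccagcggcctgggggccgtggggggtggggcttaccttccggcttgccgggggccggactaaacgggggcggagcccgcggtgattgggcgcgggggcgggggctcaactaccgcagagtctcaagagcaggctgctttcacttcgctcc
Bcl2l11 intron, Cbfa2t3: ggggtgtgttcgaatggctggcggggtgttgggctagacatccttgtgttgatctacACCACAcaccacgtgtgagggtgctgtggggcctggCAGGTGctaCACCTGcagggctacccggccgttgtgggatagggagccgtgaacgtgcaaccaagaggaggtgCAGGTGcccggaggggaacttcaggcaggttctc
Bcl2l11 intron, Zbtb1: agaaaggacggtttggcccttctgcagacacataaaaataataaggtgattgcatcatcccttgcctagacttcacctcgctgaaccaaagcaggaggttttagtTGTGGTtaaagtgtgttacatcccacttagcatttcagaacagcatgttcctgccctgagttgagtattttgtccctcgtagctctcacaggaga
Bcl2l11 upstream, Cbfa2t3: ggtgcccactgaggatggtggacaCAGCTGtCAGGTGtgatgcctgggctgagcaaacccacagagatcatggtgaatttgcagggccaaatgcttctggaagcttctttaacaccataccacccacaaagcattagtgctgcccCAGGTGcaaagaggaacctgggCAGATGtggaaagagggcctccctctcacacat
Bbc3 intron, Cbfa2t3: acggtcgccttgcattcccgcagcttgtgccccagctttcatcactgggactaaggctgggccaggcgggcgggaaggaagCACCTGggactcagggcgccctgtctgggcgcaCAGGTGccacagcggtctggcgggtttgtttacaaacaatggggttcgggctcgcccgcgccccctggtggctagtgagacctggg
The E-box letters stood in all 4 of the Cbfa2t3 sequences, with 4 in the upstream one and 3 in the intronic one. The intronic Zbtb1 sequence held TGTGGT once and no E-box letters.

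*Bcl2*, the main survival member of these cells by level, fell with sgZbtb1. It lies on chromosome 1, 106538178 to 106714274, minus strand. Its level was 706, 832 and 797 TPM in the sgControl libraries, 659, 661 and 801 in sgLmo2, 467, 423 and 475 in sgZbtb1, 637, 678 and 686 in sgCbfa2t2, and 552, 629 and 723 in sgCbfa2t3. The 3 sgZbtb1 libraries were the lowest of all 15, with no overlap with any other condition, and the 3 sgCbfa2t2 libraries were all below sgControl. The fall in sgZbtb1, from 778 ± 65.5 to 455 ± 27.9 TPM (SD, n = 3), was -0.77 on the log2(TPM + 1) scale (SE 0.09, 95% interval -0.95 to -0.60, limma adjusted p = 8.97e-10). At these levels the value rests on 836 to 1462 reads per library. In order of the mean, sgControl was followed by sgLmo2 (707 TPM), sgCbfa2t2 (667), sgCbfa2t3 (635) and sgZbtb1, and only the last of these neighbours were apart beyond the spread of their libraries.

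*Bax*, the pore former, rose with sgZbtb1. It lies on chromosome 7, 45461697 to 45466898, minus strand. Its level was 58.1, 79.9 and 76.8 TPM in sgControl, 74.1, 69.4 and 87.1 in sgLmo2, 126, 147 and 115 in sgZbtb1, 55.3, 58.2 and 82.6 in sgCbfa2t2, and 67.0, 77.7 and 92.0 in sgCbfa2t3. Every sgZbtb1 library was above every other library, and the other 4 conditions overlapped each other. The rise, from 71.6 ± 11.8 to 129 ± 16 TPM (SD, n = 3), was 0.85 on the log2(TPM + 1) scale (SE 0.16, 95% interval 0.54 to 1.16, limma adjusted p = 0.000129).

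Against sgControl, these 2 of the 10 members passed an adjusted p under 0.05 in sgZbtb1, where 4.79% of all 11554 genes tested did (1.85% higher and 2.94% lower). With 10 genes the share was not tested against that background. The exact two-sided permutation test on the libraries of the 2 conditions gave p = 0.1 for both genes, the smallest that 3 against 3 allows. The thresholds of the study for a differentially expressed gene were applied to the limma values here. They are an unadjusted p under 0.05, a change of more than 1 on the log2 scale and a mean above 10 TPM. No member met them, while 1.66% of the genes did with sgZbtb1, 0.234% with sgLmo2, 0.502% with sgCbfa2t2 and 0.658% with sgCbfa2t3. These shares come from limma and are not the study's own. Marker lists also differed in the same libraries. The 7 progenitor markers added up to 1207 to 1332.5 TPM in sgZbtb1, all below sgControl at 1371.5 to 1415. The largest parts of this sum were *Ikzf1* and *Ptprc*, with medians of 421 and 417 TPM over all libraries, while *Kit* and *Lmo2* had medians of 16.2 and 16.1. *Il7r* was at a mean of 156 TPM in sgZbtb1 and 161 in sgControl (limma adjusted p = 0.881). The 5 T-lineage markers added up to 182 to 257 TPM against 410 to 436 in sgControl, with 3 of 5 above the filter, and the 6 B-lineage markers to 212 to 228 against 311 to 375, with 3 of 6 above the filter and *Cd79a* at 0. Most of the B-lineage sum was 3′ reads of *Ebf1* itself, and most of the T-lineage sum was *Thy1* and *Lck*. Myeloid markers were at 8.61 to 22.9 against 15 to 17 TPM, and stroma markers at 1.47 to 6.15 against 4.63 to 9.97 TPM. Other conditions differed as well. The T-lineage sum was below every sgControl library in sgCbfa2t2 (341 to 392 TPM) and sgCbfa2t3 (295 to 327). In sgLmo2 it was above them (466 to 499). The B-lineage sum was below them in sgCbfa2t2 (254 to 275) and sgCbfa2t3 (255 to 291). In sgLmo2 it overlapped sgControl (260 to 329). The progenitor sum overlapped sgControl in these conditions. The part of these markers in the changes of *Bcl2* and *Bax* was not tested, and in sorted pools such as these, fewer cells that express a gene and less RNA of it per cell cannot be told apart.

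**Figure D1:**
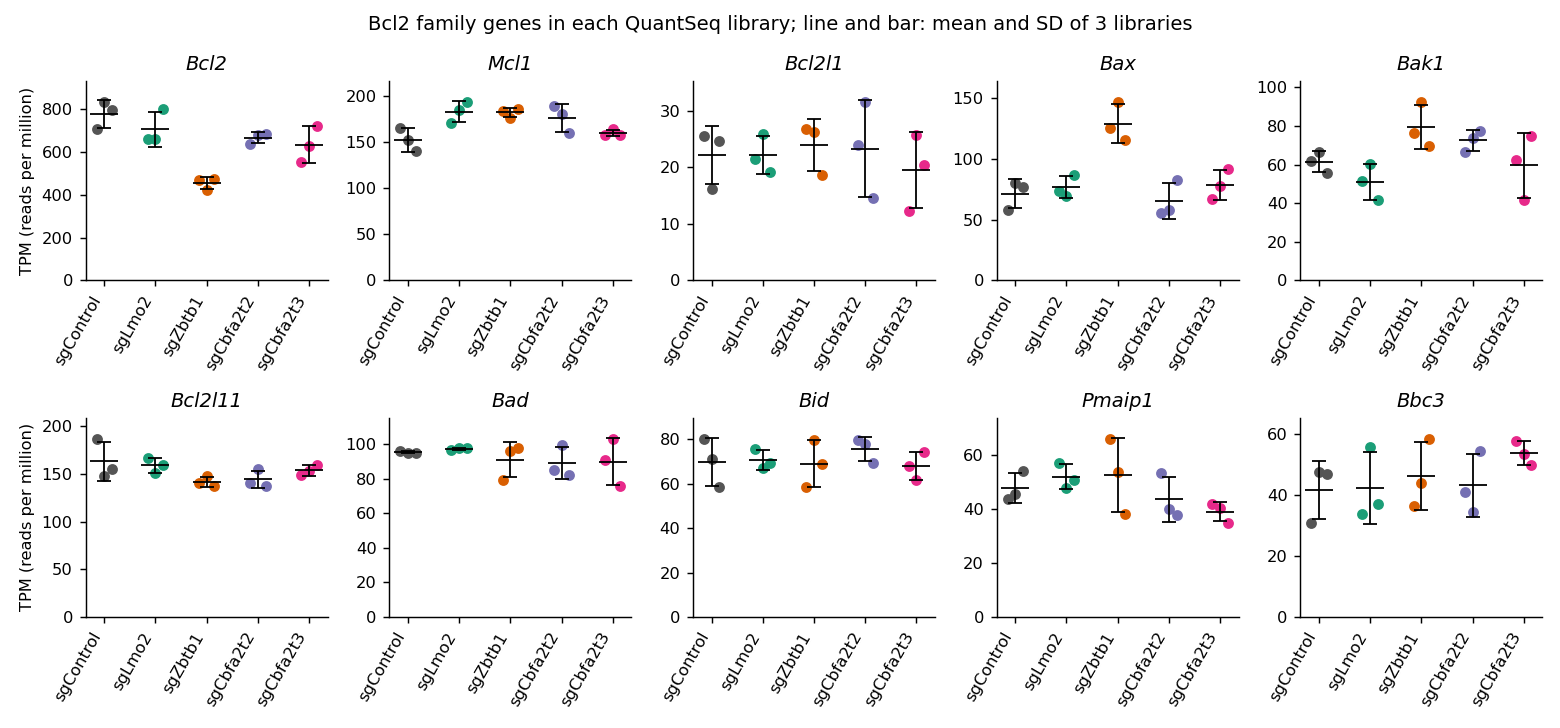
Level of each of the 10 genes in TPM (reads scaled to library size, axis from 0) in the 15 libraries, 3 per sgRNA, with the mean and SD. The 3 sgZbtb1 points lie between 423 and 475 TPM for *Bcl2* and between 115 and 147 TPM for *Bax*, apart from all other libraries.

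The ratio of *Bcl2* to *Bax* reads within a library put both changes on 1 scale. It was 12.2, 10.4 and 10.4 in sgControl and 3.72, 2.88 and 4.11 in sgZbtb1. It was 8.90 to 9.52 in sgLmo2, 8.31 to 11.6 in sgCbfa2t2 and 7.87 to 8.23 in sgCbfa2t3. No library of another condition came within the range of sgZbtb1, and the 3 sgCbfa2t3 and the 3 sgLmo2 libraries lay below all of sgControl. This ratio is a description made from genes already called, with no test of its own. As summed levels, the 3 survival genes stood at 626 to 680 TPM in sgZbtb1 and 897 to 1001 in sgControl, while *Bax* and *Bak1* together stood at 185 to 239 against 120 to 146 TPM and the 5 BH3-only genes at 380 to 421 against 407 to 437 TPM. *Bcl2* made up 67.6% to 69.8% of the survival reads in sgZbtb1 and 78.7% to 83.2% in sgControl.

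**Figure D2:**
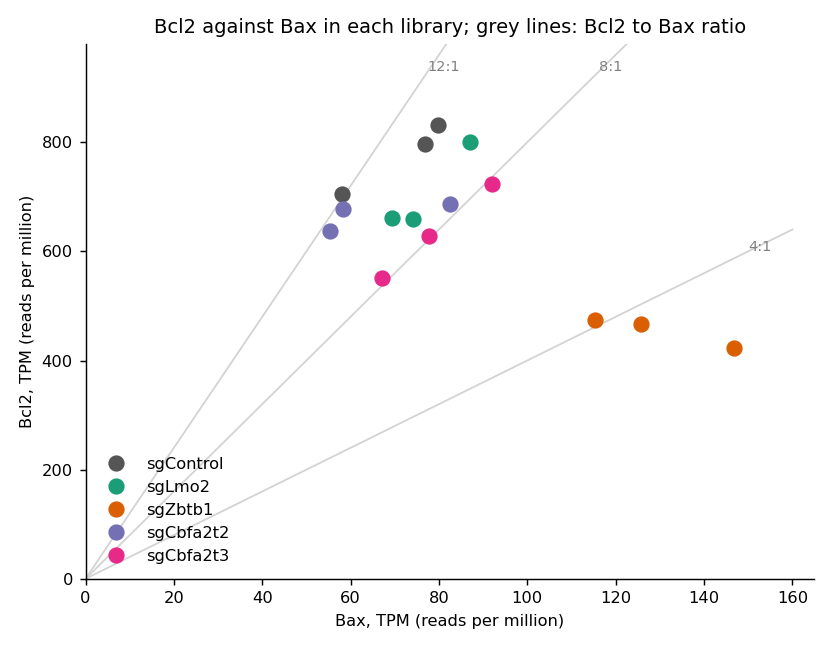
*Bcl2* against *Bax* in TPM (reads scaled to library size) for each of the 15 libraries, coloured by sgRNA, with grey lines of equal ratio. The sgZbtb1 libraries stand alone at ratios of 2.88 to 4.11, and all others lie at 7.87 or more.

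The other survival members did not pass the test in sgZbtb1. *Mcl1*, a short-lived survival protein (chromosome 3, 95658788 to 95663176, plus strand), was at 166, 152 and 140 TPM in sgControl and 184, 176 and 187 in sgZbtb1. These groups did not overlap, and the difference was 0.26 (95% interval 0.04 to 0.48, adjusted p = 0.172). In sgLmo2, *Mcl1* was at 171, 185 and 193 TPM, also all above sgControl, with a difference of 0.26 (adjusted p = 0.849). It was at 189, 181 and 160 TPM in sgCbfa2t2 and 158, 164 and 158 in sgCbfa2t3, both overlapping sgControl. *Bcl2l1* (chromosome 2, 152780668 to 152831728, minus strand) was the lowest of the 10, at 12.3 to 31.5 TPM over the 15 libraries, which is 23 to 66 reads. All 5 conditions overlapped, and its interval in sgZbtb1, -0.45 to 0.68, leaves room for changes in both directions that these libraries could not show.

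*Bak1*, the other pore former (chromosome 17, 27019810 to 27029009, minus strand), was at 62.1, 66.6 and 55.7 TPM in sgControl and 76.5, 92.3 and 69.7 in sgZbtb1. All sgZbtb1 libraries were above sgControl, with a difference of 0.36 (95% interval 0.02 to 0.70, adjusted p = 0.254). It was at 51.5, 60.1 and 41.6 TPM in sgLmo2, 66.5, 74.0 and 77.3 in sgCbfa2t2, and 62.2, 41.7 and 74.8 in sgCbfa2t3. Those 3 conditions overlapped sgControl. In all, 4 of the 10 members (*Bcl2*, *Bax*, *Mcl1* and *Bak1*) had sgZbtb1 libraries that did not overlap sgControl, and 22.9% of all genes tested had the same.

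None of the 5 BH3-only genes passed the test with sgZbtb1 or had libraries apart from sgControl there. *Bcl2l11* (chromosome 2, 128126038 to 128162547, plus strand), the most abundant of them, was at 186, 148 and 155 TPM in sgControl and 140, 148 and 137 in sgZbtb1, a difference of -0.20 (95% interval -0.42 to 0.03, adjusted p = 0.385). *Bbc3* (chromosome 7, 16308393 to 16318205, plus strand) was at 30.8, 47.5 and 46.9 TPM in sgControl and 36.3, 44.0 and 58.4 in sgZbtb1, a difference of 0.15 (95% interval -0.26 to 0.55). *Pmaip1* (chromosome 18, 66458533 to 66465565, plus strand) was at 43.6, 45.7 and 53.9 TPM in sgControl and 65.9, 53.5 and 38.3 in sgZbtb1, a difference of 0.11 (95% interval -0.27 to 0.49). Of *Bax*, *Bbc3* and *Pmaip1*, named above as p53 targets, *Bax* alone passed the test. *Bad* (chromosome 19, 6941861 to 6951899, plus strand) stayed between 75.9 and 103 TPM in all 15 libraries, and its difference in sgZbtb1 was -0.07 (95% interval -0.35 to 0.20). *Bid* (chromosome 6, 120891930 to 120916853, minus strand) stayed between 58.6 and 80.1 TPM, with a difference in sgZbtb1 of -0.02 (95% interval -0.33 to 0.29). *Bid* shares its 3′ end with *Bcl2l13* on the opposite strand, at 36.2 to 62.3 TPM, and since the strand setting of the counting is not given in the sources used here, reads of these genes could be mixed.

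**Figure D3:**
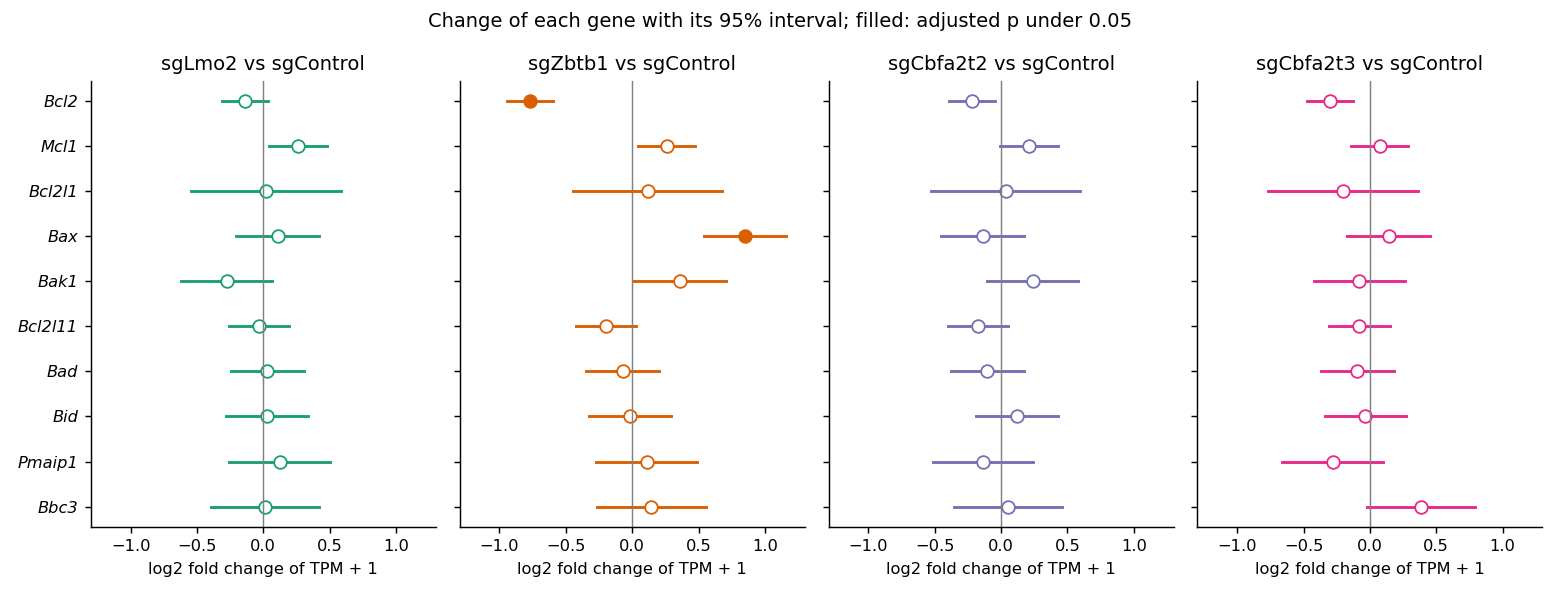
Log2 fold change of TPM + 1 against sgControl for each gene and sgRNA, with 95% intervals from limma, and filled points where the adjusted p is under 0.05. The points filled are *Bcl2* at -0.77 and *Bax* at 0.85 with sgZbtb1, and no point is filled for the other sgRNAs.

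With sgLmo2, sgCbfa2t2 and sgCbfa2t3, no member passed the limma test against sgControl, and edgeR and DESeq2 on the recovered reads also called none. Over all genes, 0.0173% were called with sgLmo2, 0.147% with sgCbfa2t2 and 0.537% with sgCbfa2t3. At an unadjusted p under 0.05 there was 1 member in each, *Mcl1* higher with sgLmo2 and *Bcl2* lower with sgCbfa2t2 and with sgCbfa2t3, beside 5.65%, 9.56% and 10.6% of all genes. The *Bcl2* differences were -0.14 (95% interval -0.31 to 0.03, adjusted p = 0.908) with sgLmo2, -0.22 (-0.39 to -0.05, adjusted p = 0.386) with sgCbfa2t2 and -0.30 (-0.47 to -0.13, adjusted p = 0.104) with sgCbfa2t3. Without sgCbfa2t3 replicate 3, the library with 723 TPM, *Bcl2* passed in sgCbfa2t3 (-0.40, adjusted p = 0.0177). *Bcl2* also passed in sgCbfa2t3 when the limma fit, which had no block, was given the replicate number as a block. *Bbc3* was at 57.9, 53.7 and 49.9 TPM in sgCbfa2t3, all above sgControl (0.38, adjusted p = 0.510), and *Pmaip1* at 41.8, 40.5 and 34.9 TPM, all below it (-0.28, adjusted p = 0.643). These 2 of 10 members without overlap in sgCbfa2t3 stand beside 15.8% of all genes. With sgLmo2 the groups of 2 members (*Mcl1* and *Bad*) did not overlap, beside 10.6% of all genes, and with sgCbfa2t2 those of 1 member (*Bcl2*), beside 13.7%. For *Bad*, this separation was 96.7 to 97.8 against 94.9 to 95.8 TPM, a difference of 0.03.

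Direct comparisons asked whether sgZbtb1 differed from the other sgRNAs. *Bcl2* was lower with sgZbtb1 than with sgLmo2 by -0.63 (adjusted p = 1.89e-07), than with sgCbfa2t2 by -0.55 (adjusted p = 1.03e-05) and than with sgCbfa2t3 by -0.47 (adjusted p = 0.000273). *Bax* was higher by 0.74 (adjusted p = 0.000892), 0.99 (adjusted p = 1.04e-05) and 0.71 (adjusted p = 0.00427). *Bak1* was also higher than with sgLmo2, by 0.63 (95% interval 0.29 to 0.98, adjusted p = 0.0150), and its differences from sgCbfa2t2 and sgCbfa2t3 were 0.12 (adjusted p = 0.844) and 0.44 (adjusted p = 0.289). This makes 3 of 10 members against sgLmo2, where 5.06% of all genes were called, 2 against sgCbfa2t2 (2.27%) and 2 against sgCbfa2t3 (1.13%). The *Bak1* difference from sgLmo2 missed the threshold without sgLmo2 replicate 3 (0.50, adjusted p = 0.154) or without sgZbtb1 replicate 2 (0.52, adjusted p = 0.133). The last *Bax* difference missed the threshold without sgZbtb1 replicate 2 (adjusted p = 0.0903) or without sgCbfa2t3 replicate 1 (adjusted p = 0.0820). These comparisons share the 3 sgZbtb1 libraries with each other and with the comparison to sgControl, so their values are not independent.

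Around the members, a list of 62 other apoptosis genes was followed, of which 50 passed the filter. With sgZbtb1, 1 of these 50 rose and 3 fell, against 4.79% of all genes in either direction, and the median difference of the 50 was -0.08 beside -0.03 over all genes. Of 9 tested genes for relatives and modulators of the family, among them *Bag1*, *Bag6* and *Tmbim6*, *Bmf*, a BH3-only gene, fell from 14.3 ± 5.00 to 5.50 ± 1.72 TPM (-1.21, adjusted p = 0.0486), and *Bnip3*, a mitochondrial protein induced by hypoxia that takes part in mitophagy, fell from 89.0 ± 20.0 to 50.1 ± 8.14 TPM (-0.81, adjusted p = 0.00209). Of 19 genes of the apoptosome, the caspases and other mitochondrial death factors, including *Vdac1*, *Vdac2* and *Vdac3*, *Vdac2*, a channel of the outer mitochondrial membrane that holds Bak1, rose from 237 ± 15.6 to 299 ± 16.6 TPM (0.34, adjusted p = 0.0317). None of the 5 caspase inhibitors passed. Of 17 regulators of the members, *Bcl11a*, a zinc finger factor that lymphoid progenitors need for survival, fell from 44.8 ± 10.9 to 25.0 ± 6.82 TPM (-0.82, adjusted p = 0.0264). Its level was also below every sgControl library in the other conditions, at 21.0 ± 5.11 TPM with sgLmo2 (-1.05, adjusted p = 0.110, the thresholds of the study met), 32.6 ± 3.17 with sgCbfa2t2 (-0.42, adjusted p = 0.601) and 27.3 ± 3.55 with sgCbfa2t3 (-0.68, adjusted p = 0.237). Directly compared, *Bcl11a* in sgZbtb1 did not pass the test against sgLmo2 (0.23, 95% interval -0.24 to 0.71), sgCbfa2t2 (-0.40, -0.87 to 0.08) or sgCbfa2t3 (-0.14, -0.62 to 0.33). *Trp53* (64.6 ± 3.49 and 58.9 ± 8.83 TPM, adjusted p = 0.728) and *Mdm2*, a p53 target that limits p53 (74.9 ± 1.25 and 71.2 ± 10.7 TPM, adjusted p = 0.853), did not pass, with differences of -0.14 and -0.08. None of the 50 passed with the other sgRNAs by limma, edgeR or DESeq2, where 5 with sgLmo2, 8 with sgCbfa2t2 and 8 with sgCbfa2t3 had an unadjusted p under 0.05, beside the 5.65%, 9.56% and 10.6% of all genes given above.

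The count of this wider list in sgZbtb1 was less stable than the calls of *Bcl2* and *Bax*. Without sgControl replicate 2 it was 1 gene, without sgZbtb1 replicate 3 it was 2, and with all genes above 0 in the fit it was 0.

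Among 7959 other protein-coding genes with a mean of at least 10 TPM, those whose log2(TPM + 1) over the 15 libraries was most like *Bcl2* were *Smim5* (Pearson r = 0.94), *Lztfl1* (0.92) and *Hoxa9* (0.92). Those most like *Bax* were *Pdxdc1* (0.92), *Ccdc66* (0.91) and *Cltb* (0.87). These values describe 15 libraries in 5 conditions, in which a step in sgZbtb1 alone can make a high r.

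The ChIP-seq lists asked where Zbtb1 and Cbfa2t3 were found near these genes in LPs without sgRNA. Zbtb1 peaks had *Bcl2*, *Mcl1*, *Bax*, *Bcl2l11* and *Bbc3* as the nearest gene, 5 of 10 members, beside 27.3% of the genes tested. At 4 of these (all but *Bbc3*) the list annotates a peak as lying at the transcription start, beside 12.4% of the genes. Cbfa2t3 peaks had *Bcl2l11*, *Bbc3*, *Bid*, *Pmaip1* and *Mcl1*, again 5 of 10, beside 20.9%, with 1 annotated at a transcription start, that of *Bcl2l11*, beside 5.18%. The lists use a single start for *Bbc3*, and peaks of both factors overlapped the promoter windows of 2 further *Bbc3* starts in RefSeq, so these counts hold for the annotation of the lists. *Bcl2l1*, *Bak1* and *Bad* were the nearest gene of no peak in either list. Each list holds peaks found in both of its replicates, with 1 score per peak, so scores have no error here.

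The Zbtb1 peak at *Bcl2*, chr1:106714039-106714409, lay 66 bp from the transcription start in the numbering of the list. Its score of 136.3 ranked 297 of 5898, the highest of the 8, beside a median of 28 over the list. The *Bcl2l11* promoter peak (47.5, at 23 bp), the *Mcl1* promoter peak (43.9, at -41 bp) and the *Bax* promoter peak (32, at 20 bp) followed it among the peaks at starts. *Bcl2* and *Bax*, which changed with sgZbtb1 in opposite directions, thus both had a Zbtb1 peak at the start, and so did *Mcl1* and *Bcl2l11*, which did not pass the test. *Bak1* had none.

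The other Zbtb1 peaks lay away from the starts that the list uses. One in a CpG island, annotated to the first intron of *Bbc3* and covering the further starts, had a score of 44.8 at 705 bp. Another, chr7:16342659-16343029, with a score of 74.4, is 33.3 kb downstream of the *Bbc3* start, in intron 6 of *Sae1* and in a (CCA)n simple repeat. Its 200 bp window held 42 overlapping matches to TGGTGGT on either strand, and the 60 bases at its centre (chr7:16342815-16342874) show the repeat.
Bbc3 downstream: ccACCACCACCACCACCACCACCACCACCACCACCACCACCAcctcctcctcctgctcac
*Bcl2l11* had the last pair of Zbtb1 peaks, at 25.6 kb and 28.6 kb in its last intron (29.9 and 29.1), the second of them in a (CACAC)n repeat with 8 matches to TGTGGT.

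*Bcl2l11* had 8 of the 16 Cbfa2t3 peaks, and 18 genes of the list, itself included, had as many or more. They ran from -117 kb to 124 kb around its start. The highest, chr2:128091392-128091770, had a score of 152.3 (rank 224 of 6077) and lay at -34.5 kb, in intron 16 of *Acoxl*. Next came those at 76.6 kb (96.8), 25.4 kb (79.9), -117 kb (72.1) and the promoter at -180 bp (65.5), and the lowest were at -63.1 kb (31.8), 124 kb (28.8) and 94.4 kb (24.9). *Bbc3* had a Cbfa2t3 peak at 470 bp (78.4) and another in its second intron at 3.61 kb (52.6). *Mcl1* had one 10.0 kb downstream (47.3). *Bid* had 3, at -13.8 kb (43), 1.48 kb (27.8) and 14.7 kb (26.6), and *Pmaip1* had 2, at -20.6 kb (41.4) and 19.7 kb (24.7). With sgCbfa2t3, none of these 5 genes passed the test.

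**Figure D4:**
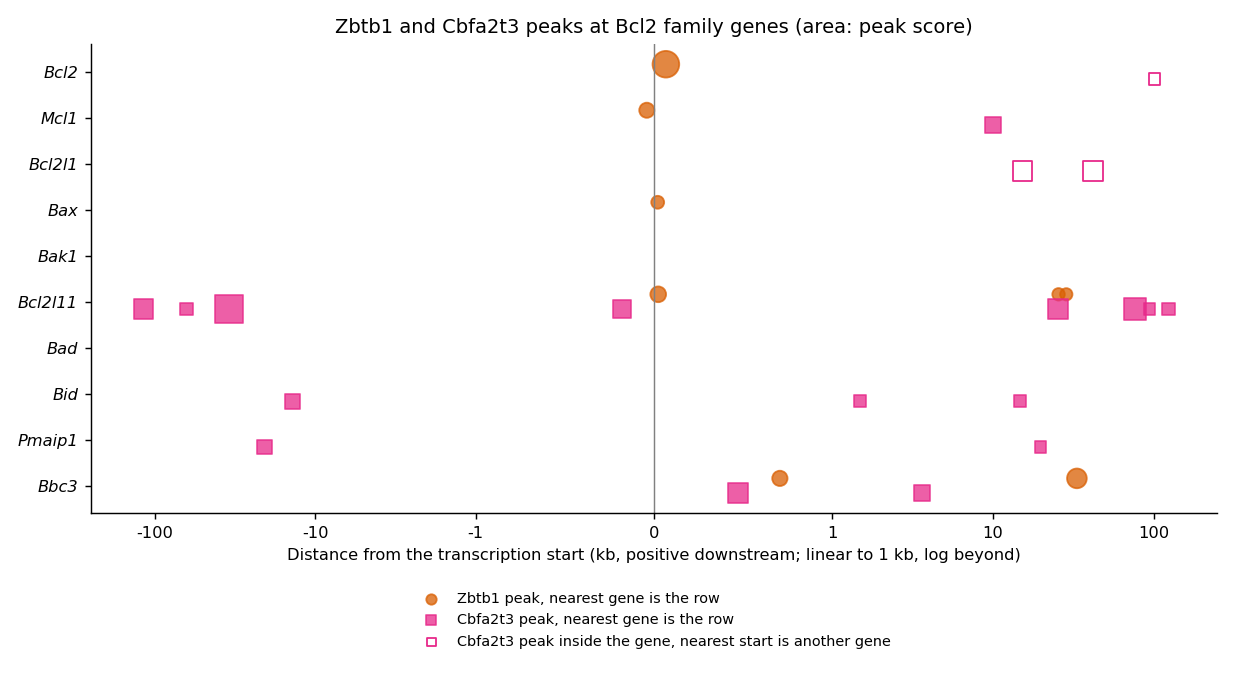
Distance of each peak from the transcription start of the gene in its row (kb, linear to 1 kb and on a log scale beyond), with the area showing the peak score, for Zbtb1 (circles) and Cbfa2t3 (squares). Zbtb1 peaks stand at the starts of *Bcl2*, *Mcl1*, *Bax* and *Bcl2l11*, and 8 Cbfa2t3 peaks spread around *Bcl2l11*. Open squares are Cbfa2t3 peaks inside *Bcl2* or *Bcl2l1* that the list gives to another gene.

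The rule of the nearest start left out peaks inside 2 large members. A Cbfa2t3 peak in the intron of *Bcl2* (24.4) is listed under *Mir3473f*, as are 2 Cbfa2t3 peaks (90.6 and 27.7) and 1 Zbtb1 peak (18.1) beyond the 3′ end of *Bcl2*, 197 to 198 kb from its start. In intron 2 of *Bcl2l1*, Cbfa2t3 peaks with scores of 80.5 and 73.3 lay 42.1 and 15.3 kb from its start, of which the first is listed under *Cox4i2* and the second under no gene name. Just beyond the 3′ end of *Bax*, peaks of Zbtb1 (34.6) and Cbfa2t3 (52.3) are listed under *Ftl1*. Counting all peaks with centres in a member or within 100 kb of it gave 30 Zbtb1 and 34 Cbfa2t3 peaks in place of 8 and 16.

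At 3 places a Zbtb1 and a Cbfa2t3 peak with a member as the nearest gene overlapped, at the *Bcl2l11* promoter, in the last *Bcl2l11* intron and in the first *Bbc3* intron. Over the whole lists, 25.2% of Zbtb1 peaks overlapped a Cbfa2t3 peak, and 24.4% of Cbfa2t3 peaks overlapped a Zbtb1 peak. The shared peaks are 3 of 8 among the Zbtb1 and 3 of 16 among the Cbfa2t3 peaks of the members. Their centres were 203, 251 and 235 bp apart. The pair of peaks just beyond the 3′ end of *Bax* and a pair beyond the 3′ end of *Bcl2* (scores of 18.1 and 90.6), which the lists give to other genes, also overlapped, with centres 37 and 64 bp apart. Over all peaks within 100 kb of a member there were 8 overlapping pairs, of which 5 had centres within 100 bp.

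Motif letters were counted in 200 bp at each peak centre. Of the 16 Cbfa2t3 peaks, 14 held CAGNTG, beside 83.2% of the 6070 peaks of the list on assembled chromosomes, 7 held TGTGGT (43.7%), 3 held GATAA (13.1%) and 2 held TGGTGGT (7.02%). Of the 8 Zbtb1 peaks, 2 held TGTGGT, beside 41.3% of 5890, and 1 each held CAGNTG (39.3%) and TGGTGGT (15.8%), while GATAA was in 0 of 8 (9.78%). The Zbtb1 peaks with TGTGGT were the intronic ones of *Bcl2l11*, and at the 4 transcription starts the windows held no match other than CAGNTG at *Bcl2l11*, which lies in its exon beyond the bases printed. These matches describe letters in a window and are no evidence of bound or unbound sites.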

How the data were processed

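The 10 members, the wider apoptosis lists and the tests were chosen with earlier results of these data known. For QuantSeq, the authors trimmed reads with fastp, mapped them to mm10 with STAR and deposited values scaled to library size, called TPM and here used as CPM, and all or nearly all values (99.98% to 100% per library, within 0.05) were whole reads. The 1 row with no gene ID, at most 0.0001% of the reads of a library, was left out. For ChIP-seq, Bowtie 1.1.1 and HOMER were used (submitters' processing notes), and the deposited peak score (at least 15) of each peak in both replicates was taken as given, with no depth.

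limma 3.58.1 (R 4.3.3), with a variance trend and all 15 libraries in a single fit, was run on log2(TPM + 1) of the 11554 genes whose mean exceeded 1 TPM, and p-values were adjusted over these genes (Benjamini-Hochberg). edgeR 4.0.16 and DESeq2 1.42.0 on recovered reads were alternatives. The limma fit was tested on simulated counts drawn independently for each library. Replicate libraries differed by more than sampling noise. All members were named, with genes of the wider lists under an adjusted p of 0.05, *Bcl11a*, *Trp53* and *Mdm2*, and the 3 genes most like each called member. Peaks were joined to GENCODE vM21 genes, and sequences read with pysam 0.24.0. The p-values measure the spread between libraries of 1 line.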

Additional observations from a re-analysis of the deposited data

How the results depend on the processing

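The fall of *Bcl2* and the rise of *Bax* with sgZbtb1 kept their direction and passed the threshold in all 15 alternatives each, with log2 changes of -0.84 to -0.55 (highest adjusted p = 6.67e-05) and 0.71 to 0.94 (highest adjusted p = 0.00622). The number of members called was 1 with sgCbfa2t3 under the replicate block (*Bcl2*, adjusted p = 0.0313), 0 to 1 there when single libraries were left out, 1 with sgLmo2 against the 9 other gene-targeting libraries (*Bcl2*, 0.29 with adjusted p = 0.0124), and 1 to 2 for sgZbtb1 against sgCbfa2t3 when single libraries were left out. Those 9 libraries include sgZbtb1. The wider list gave 1 gene with sgLmo2 under the replicate block and 2 against the 9 others, and with sgZbtb1 0 with all genes above 0 and 1 to 4 with libraries left out.

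The replicate numbers mark no stated batch. Deviations of same-numbered libraries correlated at -0.01 to 0.07 over 30 pairs, and 14 of 15 libraries were closest to their own number. The block changed no other member call. It raised the calls over all genes from 2 to 14 with sgLmo2, 17 to 36 with sgCbfa2t2 and 62 to 93 with sgCbfa2t3.

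Reversals among members that did not pass the test were as follows. Against the 9 other libraries, *Bcl2* was at 0.18 with sgCbfa2t2 and 0.078 with sgCbfa2t3, *Bax* at -0.18 with sgLmo2 and -0.13 with sgCbfa2t3, *Bcl2l11* at 0.12 with sgLmo2 and 0.054 with sgCbfa2t3, *Mcl1* at -0.17 with sgCbfa2t3, and *Bbc3* at -0.18 with sgLmo2, -0.0050 with sgZbtb1 and -0.13 with sgCbfa2t2. With edgeR and DESeq2, *Bcl2l1* was at -0.0029 and -0.011 with sgLmo2 and *Bid* at 0.0060 and 0.00094 with sgZbtb1, *Bid* was at -0.0035 with sgLmo2 by DESeq2, and *Bbc3* was at -0.0041 with sgLmo2 under median-of-ratios size factors.

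With single libraries left out, values ran with sgLmo2 from -0.18 to 0.13 for *Bcl2l1*, -0.033 to 0.19 for *Bax*, -0.098 to 0.070 for *Bcl2l11*, -0.095 to 0.13 for *Bid* and -0.20 to 0.15 for *Bbc3*. With sgZbtb1 they ran from -0.083 to 0.28 for *Bcl2l1*, -0.14 to 0.092 for *Bid*, -0.13 to 0.021 for *Bad*, -0.055 to 0.30 for *Bbc3* and -0.068 to 0.32 for *Pmaip1*. With sgCbfa2t2 they ran from -0.21 to 0.33 for *Bcl2l1* and -0.15 to 0.20 for *Bbc3*. With sgCbfa2t3 they ran from -0.42 to 0.077 for *Bcl2l1*, -0.0019 to 0.25 for *Bax*, -0.26 to 0.15 for *Bak1*, -0.15 to 0.021 for *Bcl2l11*, -0.15 to 0.068 for *Bid* and -0.20 to 0.019 for *Bad*. The cause was not tested.

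Within 100 kb of the members there were 30 Zbtb1 and 34 Cbfa2t3 peaks, and they made 8 overlapping pairs, of which 5 had centres within 100 bp. Of the 3 pairs with a member as the nearest gene, 0 had centres within 100 bp. In 400 bp windows CAGNTG was in 4 of 8 Zbtb1 peaks (61.2% of the list) and GATAA in 8 of 16 Cbfa2t3 peaks (27.5%). Of the members, *Bcl2l1* had the fewest reads, 23 to 66 per library, and the largest SE of its differences.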

Other observations

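Peaks near *Bcl2l11* and *Bbc3* also lie in other genes, chosen here after their values were seen. Of the Cbfa2t3 peaks given to *Bcl2l11*, 3 upstream ones lie in introns of *Acoxl*, and 3 downstream ones lie in *Morrbid* (*Gm14005* in GENCODE), a long noncoding RNA known in myeloid cells as a regulator of *Bcl2l11*. *Morrbid* was at 2.93 to 13.3 TPM over the 15 libraries and *Acoxl* at 0 to 9.29 TPM, and neither passed the limma test with any sgRNA against sgControl. With sgCbfa2t3 the difference of *Morrbid* was 0.36 (SE 0.42, adjusted p = 0.820) and that of *Acoxl* was -0.12 (SE 0.59, adjusted p = 0.966). *Sae1*, which holds the Zbtb1 peak in the (CCA)n repeat, was at 439 TPM in sgControl and 524 in sgZbtb1, a difference of 0.25 (SE 0.08, adjusted p = 0.0651).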
